A study of Mus musculus with 5 samples.

Results

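The clustered protocadherins are cadherin-related cell surface proteins encoded by 3 tandem gene clusters, alpha, beta and gamma. Their DNA methylation in mouse embryonic stem (ES) cells was read from reduced representation bisulfite sequencing (RRBS), in which bisulfite converts unmethylated cytosines so that they read as T. The CpGs were chosen by position alone, on mm9 chromosome 18: 37.08 to 37.36 Mb for alpha, 37.41 to 37.68 Mb for beta and 37.82 to 38.01 Mb for gamma. CpGs inside CCGG, the site cut by the enzyme MspI in RRBS, were kept apart. This left 283 CpGs listed in at least 1 library, 77 in alpha, 43 in beta and 163 in gamma, of 598336 such CpGs in the whole series. A further 25 CpGs lie between the subclusters and are given for comparison.

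There were 5 libraries, 1 for each genotype, namely WT, Fbxl10 T/T and the Polycomb mutants Ring1B -/-, Eed -/- and Ezh2 -/-. FBXL10 has a zinc finger domain that recognises CpG without methylation. The E3 ligase Ring1B belongs to Polycomb repressive complex 1, while Eed and the methyltransferase Ezh2 belong to Polycomb repressive complex 2. By its title the study asks whether FBXL10 keeps genes bound by Polycomb free of added methylation, so the main comparison is Fbxl10 T/T with WT. WT and Fbxl10 T/T are labelled C57BL/6J, were grown with serum and LIF on feeder fibroblasts inactivated with Mitomycin C and taken at passage 17. For the 3 Polycomb mutants the labels give serum and LIF, and neither strain nor passage, so genotype cannot be told apart from culture or origin there. The labels do not describe the T allele, and feeder cells were depleted by plating before DNA was taken. With no expression table used here, neither the identity of the ES cells nor residual feeder DNA was tested.

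As background, each neuron expresses its own small set of clustered protocadherin isoforms, whose extracellular domains bind like with like and give the cell a surface identity used in self-avoidance of neurites. In the alpha and gamma clusters many variable exons, each with its own promoter, are spliced to shared constant exons at the end of the cluster, whereas each beta gene is a single exon. Most of the variable promoters carry a conserved element bound by the insulator protein CTCF, their choice is stochastic, and DNA methylation of the promoter and first exon goes with silence of an isoform. The last variable exons of alpha and gamma, called C-type (Pcdhac1 and Pcdhac2, Pcdhgc3, Pcdhgc4 and Pcdhgc5), follow other rules of expression. RefSeq lists 14 alpha, 22 beta and 22 gamma genes in this order along the chromosome, with Slc25a2, a mitochondrial carrier, and Taf7, a subunit of the general transcription factor TFIID, between beta and gamma. That annotation is of build GRCm38.p6 and was used for the order of genes only, so the mm9 windows below carry no gene name.

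Depth set what could be compared. WT had reads at 233 of the 283 CpGs and Fbxl10 T/T at 224. Ring1B -/- had reads at only 68 of them, Eed -/- at 58 and Ezh2 -/- at 53. Over the whole series the median was 37 reads per CpG in WT, 25 in Fbxl10 T/T and 2 to 3 in the Polycomb mutants. Every level is the share of C among the reads showing C or T, summed over CpGs. The 95% intervals (Wilson for a level, Newcombe for a difference) and the limits allowed by a count of 0 cover counting error only. A read is counted at each CpG it covers. Where CpGs share reads, summed intervals and limits are therefore too narrow, and the p-values of windows are too small. With 1 library per genotype no difference has a replicate check, and Fisher's exact test (two-sided) compares the reads of 2 libraries, not 2 genotypes. The variable exons are close copies of each other, and how reads that fit several copies were placed is not given in the sources used here, so the assignment of a level to 1 copy is uncertain.

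Summed over their CpGs, the alpha and gamma subclusters were more methylated in Fbxl10 T/T than in WT and the beta subcluster was less methylated. Over the 43 alpha CpGs read in both libraries the level was 25.4% in WT and 57.8% in Fbxl10 T/T, a difference of 32.4 points (27.4 to 37.1). With every CpG weighted equally, which lets thinly read CpGs weigh as much as deep ones, the alpha difference was 14.3 points. Of the 897 WT and 597 Fbxl10 T/T reads in alpha, chr18:37249001-37250000 held 312 and 234, and chr18:37303001-37304000 held 195 and 98. These 2 windows, described below, both rose, so the alpha sum does not show a rise all along the subcluster. Other alpha windows went either way: chr18:37180001-37181000 read 31.9% in WT and 72.7% in Fbxl10 T/T, and chr18:37092001-37093000 read 60.9 and 16.7%. Over 105 gamma CpGs the level was 24.96% in WT and 38.3% in Fbxl10 T/T, a difference of 13.4 points (11.2 to 15.6). Over 29 beta CpGs it was 70.6% in WT and 53.4% in Fbxl10 T/T, a difference of -17.2 points (-23.1 to -11.2). The 3 subclusters together stood at 29.4% in WT and 43.2% in Fbxl10 T/T, over 6026 and 3802 reads. Across all CpGs of the series outside CCGG the level was 13.57% in WT and 20.96% in Fbxl10 T/T, so each subcluster was above that level in both libraries. The 25 CpGs between the subclusters read 15.1% in WT and 11.2% in Fbxl10 T/T.

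**Figure D1:**
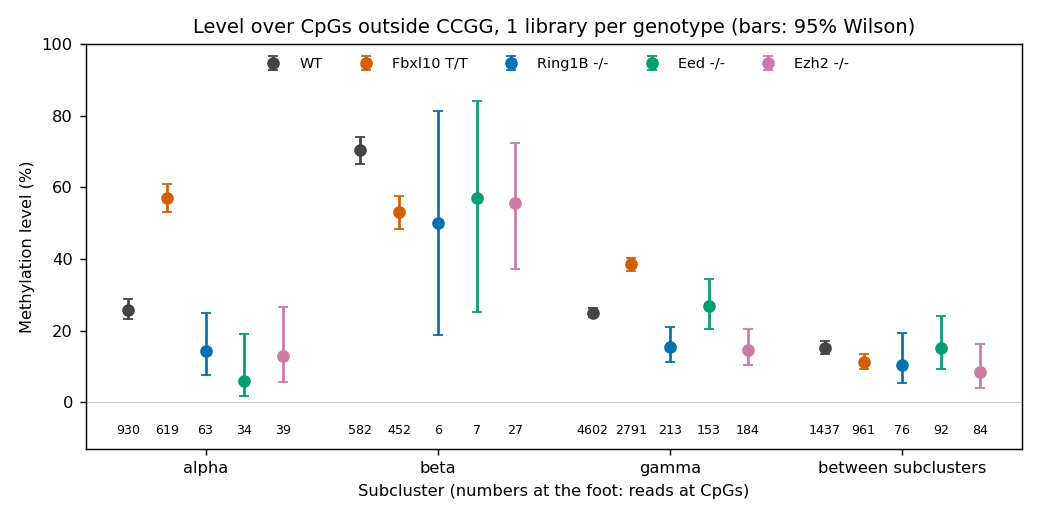
Methylation level (%, vertical axis) of all covered CpGs outside CCGG in alpha, beta, gamma and the stretches between them, 1 point per library with its 95% Wilson interval and the number of reads at the foot. In alpha and gamma the Fbxl10 T/T point is the highest of the 5, in beta it lies below WT, and the beta values of Ring1B -/- and Eed -/- rest on 6 and 7 reads.

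Within alpha, the windows that could be tested were not alike. A 1-kb window was tested with at least 5 shared CpGs and 30 reads in each library, and called where the levels lay 20 points or more apart and the Benjamini-Hochberg adjusted p over all windows of the genome was below 0.05 (Fisher's exact test). Of 9 protocadherin windows tested, 2 were called higher in Fbxl10 T/T, against 25.5% of the 20072 windows of the genome, and 1 was called lower, against 2.65%. Both higher windows lie in alpha.

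In chr18:37303001-37304000 the level was 1.03% in WT (2 of 195 reads) and 66.3% in Fbxl10 T/T (65 of 98 reads), over 8 CpGs (adjusted p = 1.02e-36, Fisher's exact test). The 4 CpGs with at least 10 reads in both libraries all read high in Fbxl10 T/T: 13 of 27 reads against 0 of 51 in WT at position 37303473, 15 of 19 against 0 of 31 at 37303556, 22 of 29 against 2 of 70 at 37303576, and 7 of 11 against 0 of 39 at 37303586. At these 4 CpGs the Polycomb mutants had few reads and no methylated one. At 37303576, the best covered, Ring1B -/- had 0 of 8, Eed -/- 0 of 2 and Ezh2 -/- 0 of 5. The next window, chr18:37304001-37305000, did not share the difference. It read 55.9% in WT and 50% in Fbxl10 T/T over 6 CpGs (adjusted p = 0.735, Fisher's exact test; -5.88 points, or -21.7 as a mean over CpGs), so that within 2 adjoining windows WT went from almost no methylation to over 50% while Fbxl10 T/T read 66.3 and 50%.

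In chr18:37249001-37250000 the level was 10.3% in WT (32 of 312 reads) and 60.3% in Fbxl10 T/T (141 of 234), over 9 CpGs (adjusted p = 7.46e-36, Fisher's exact test). Nearly all reads came from 3 neighbouring CpGs, at positions 37249551, 37249555 and 37249557, which share reads. They stood at 9.78, 12.9 and 9.68% in WT and at 50, 61.8 and 69.7% in Fbxl10 T/T. Ring1B -/- had 0 methylated of 10 reads at each of them. Eed -/- had 0 of 2 at each, and Ezh2 -/- had 1 of 6 at 37249555 and 0 of 6 at the others.

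Single CpGs outside CCGG with at least 10 reads in both libraries gave a finer map: 16 in alpha, 18 in beta and 72 in gamma. A CpG was called where the levels lay 25 points or more apart and the p adjusted over all CpGs of the genome was below 0.05 (Fisher's exact test). Of these 106 CpGs, 30 were called higher in Fbxl10 T/T, against 16.5% of 368305 CpGs in the genome, and 8 were called lower, against 4.35%. In alpha 9 of 16 were called higher and 1 lower. The 9 lie in 4 windows, and their levels ran from 0 to 38.9% in WT (median 9.68%) and from 48.1 to 94.7% in Fbxl10 T/T (median 69.7%). The 2 outside the windows above were position 37113063, with 7 of 18 reads in WT and 18 of 19 in Fbxl10 T/T, and position 37180582, with 23 of 72 and 32 of 44. The CpG called lower, at 37092161, had 19 of 31 reads in WT and 1 of 13 in Fbxl10 T/T (adjusted p = 0.0102, Fisher's exact test).

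**Figure D2:**
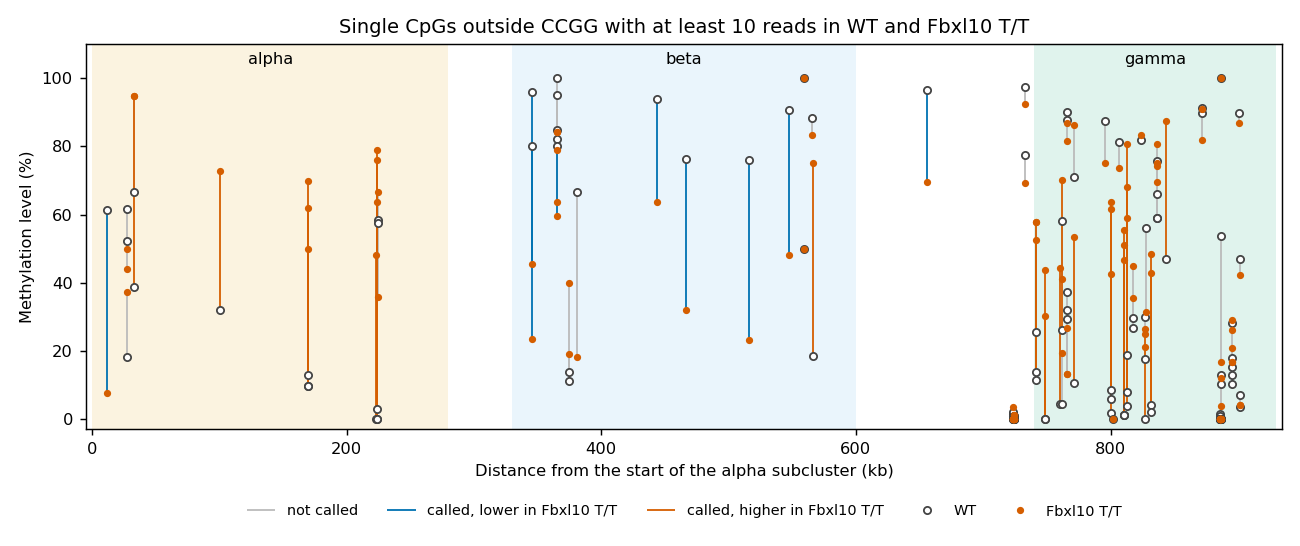
Single CpGs with at least 10 reads in WT and Fbxl10 T/T, by distance from the start of the alpha subcluster (kb, horizontal axis) and methylation level (%, vertical axis), with open points for WT, filled points for Fbxl10 T/T and a line joining each pair. Of the orange lines (called higher) 9 are in alpha, 20 in the first part of gamma and 1 in beta, and 7 of the 8 blue lines in the subclusters (called lower) are in beta.

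Gamma held the largest number of CpGs called higher, 20 of 72, and none called lower. Position 37907945 missed a call as lower by the 25-point threshold only. It had 37 of 66 reads in WT and 17 of 54 in Fbxl10 T/T (-24.6 points, adjusted p = 0.0424, Fisher's exact test). All 20 lie in the first 140 kb of the subcluster, in 11 windows. Their levels ran from 0 to 46.9% in WT (median 4.28%) and from 25 to 87.5% in Fbxl10 T/T (median 53.0%). No gamma window with 5 CpGs was called. With windows of at least 3 CpGs, an alternative setting, 4 gamma windows were called higher and 6 of 19 protocadherin windows in all, against 22.4% of the genome. The same 1 of 19 was called lower, against 8.87%.

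These 4 gamma windows held 3 shared CpGs each. The deepest was chr18:37890001-37891000, at 1.32% in WT (6 of 454 reads) and 51.1% in Fbxl10 T/T (144 of 282; adjusted p = 3.21e-63, Fisher's exact test). Its 3 CpGs, which share reads, lay between 46.8 and 55.3% in Fbxl10 T/T and at 1.32% each in WT. Tested singly, they had adjusted p-values from 2.58e-22 to 6.88e-18 (Fisher's exact test). The window chr18:37892001-37893000 read 12.2% in WT and 70.7% in Fbxl10 T/T (98 and 75 reads; adjusted p = 9.29e-15, Fisher's exact test). For chr18:37880001-37881000 the levels were 4.18 and 53.1% (263 and 147 reads; adjusted p = 8.31e-30, Fisher's exact test), and for chr18:37821001-37822000, at the start of gamma, 17.1 and 56.1% (129 and 57 reads; adjusted p = 5.99e-07, Fisher's exact test). In these windows WT stood between 1.32 and 17.1% and Fbxl10 T/T between 51.1 and 70.7%.

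Gamma windows with higher WT levels lay among them and were not called. Single CpGs at such levels could still be called higher. Position 37923313 read 46.9% in WT and 87.5% in Fbxl10 T/T, and position 37841860 read 26.2 and 70%. The window chr18:37845001-37846000 read 62.1% in WT and 54.7% in Fbxl10 T/T over 11 CpGs (493 and 298 reads; adjusted p = 0.0921, Fisher's exact test), but as a mean over CpGs Fbxl10 T/T was higher by 31.7 points, because 4 CpGs with 1 read in each library then weigh fully. In chr18:37897001-37898000 the levels were 27.3 and 42.4% over 8 CpGs, on 88 and 66 reads (adjusted p = 0.119, Fisher's exact test), and the difference of 15.2 points was 40.5 as a mean over CpGs. In chr18:37916001-37917000 they were 64.2 and 74.8% over 4 CpGs, on 165 and 139 reads (adjusted p = 0.118, Fisher's exact test).

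In the last 50 kb of gamma, the CpGs low in WT that could be tested differed from those before them in these values. This division was chosen after the values were seen and is given without a test. Among CpGs below 10% in WT, of which 17.2% were called higher over the genome, 0 of 17 were called higher there. In the gamma stretch before it 14 of 16 were, and in alpha 6 of 6. These CpGs lie in 3, 9 and 2 windows in that order, and neighbouring CpGs can share reads. The 17 lie between positions 37965936 and 37981828, most of them in the adjoining windows chr18:37965001-37966000 and chr18:37966001-37967000. Farther on in gamma, no CpG outside CCGG had 10 reads in both libraries. The 17 CpGs read 1.37% in WT (17 of 1237 reads; 0.86 to 2.19%) and 1.08% in Fbxl10 T/T (8 of 743; 0.547 to 2.11%). The 16 CpGs before them read 2.53% in WT (28 of 1108 reads) and 46.9% in Fbxl10 T/T (320 of 683). The largest window of the last stretch, chr18:37966001-37967000 with 16 CpGs, read 6.13 and 5.70% (865 and 509 reads; adjusted p = 0.935, Fisher's exact test). Beside it, chr18:37965001-37966000 read 0.476% in WT and 0 of 129 reads in Fbxl10 T/T, which allows a level of up to 2.33%. Farther on, chr18:37975001-37976000 read 14.6 and 19.4% over 10 CpGs, and chr18:37981001-37982000 read 22.9 and 16.3% over 4 CpGs. In RefSeq's order the C-type genes Pcdhgc3, Pcdhgc4 and Pcdhgc5 are the last of the gamma genes. Pcdhac1 and Pcdhac2 are likewise the last of the alpha genes, and both alpha windows called higher lie in the later part of alpha. Which gene each mm9 window belongs to was not tested.

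The window between beta and gamma with the most CpGs, chr18:37803001-37804000, was likewise low in both libraries. Its 18 CpGs read 0.748% in WT (9 of 1203 reads) and 0.371% in Fbxl10 T/T (3 of 809; adjusted p = 0.549, Fisher's exact test). None of the 18 was called higher. Outside the clusters, 1 of 90 CpGs below 10% in WT was called higher in the 500 kb before alpha and 28 of 175 in the 500 kb after gamma, the second near the 17.2% of the genome.

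**Figure D3:**
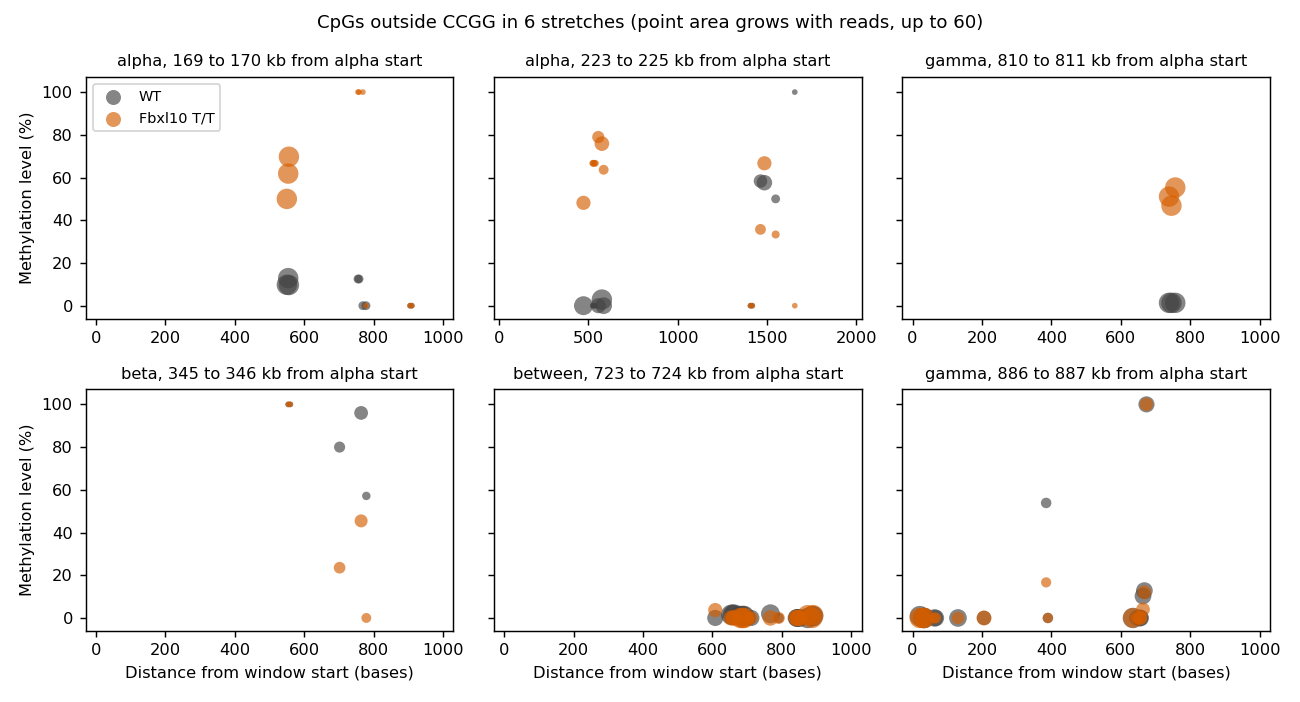
CpGs outside CCGG read in both libraries in 6 stretches, by distance from the start of the first window (bases, horizontal axis) and methylation level (%, vertical axis), with grey points for WT and orange points for Fbxl10 T/T and point areas that grow with reads up to 60. Well covered orange points stand above grey ones in the 3 upper panels except in the adjoining window on the right of the middle one, below them at the well covered beta CpGs, and at the foot of the plot with them in the last 2 panels, apart from a few gamma CpGs.

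Beta had no CpG below 10% in WT with 10 reads in both libraries, and its changes went mostly the other way. Of 18 CpGs, 7 were called lower in Fbxl10 T/T, against 4.35% of all CpGs and 28% of those at 70% or above in WT, the class of all 7, and 1 was called higher, against 16.5%. The 7 lie in 6 windows across the subcluster, with levels from 76.0 to 96.0% in WT (median 84.8%) and from 23.1 to 63.6% in Fbxl10 T/T (median 45.5%). The best covered were position 37627759, with 49 of 54 reads in WT and 24 of 50 in Fbxl10 T/T (adjusted p = 1.39e-05, Fisher's exact test), and position 37524095, with 61 of 65 and 21 of 33 (adjusted p = 0.00163, Fisher's exact test). At 37546194 the reads were 32 of 42 and 9 of 28, and at 37595816 they were 19 of 25 and 3 of 13. The CpG called higher, at 37646641, had 5 of 27 reads in WT and 15 of 20 in Fbxl10 T/T.

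Both beta windows that could be tested were lower in Fbxl10 T/T, 1 of them past the threshold. The window chr18:37425001-37426000 read 85.7% in WT (42 of 49 reads) and 30.8% in Fbxl10 T/T (16 of 52), over 5 CpGs (adjusted p = 7.72e-08, Fisher's exact test). The difference of -54.9 points was -32.8 as a mean over its CpGs. The window chr18:37445001-37446000 read 87.2 and 70.6% (133 and 126 reads), a difference of -16.6 points that did not reach 20 points (adjusted p = 0.0033, Fisher's exact test).

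Sorting the 106 CpGs by their WT level separated the subclusters further. Of those below 10% in WT, 20 of 39 were called higher, against 17.2% of such CpGs in the genome. Of those at 10 to 70%, 10 of 43 were called higher, against 34.9%. Of those at 70% or above, 7 of 24 were called lower, against 28% in the genome. These 7 were among the 13 beta CpGs of that class, and 0 of 11 gamma CpGs of that class were called lower. The share called lower among highly methylated CpGs of the 3 subclusters was thus near that of the genome, while the share called higher among their CpGs low in WT was above it. That share was not common to the subclusters. It came from 6 alpha CpGs in 2 windows and 14 CpGs of the first 140 kb of gamma. Beta had 0 CpGs of this class, and neighbouring CpGs can share reads. Of tested windows 2 of 9 were called higher, against 25.5% of the genome.

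**Figure D4:**
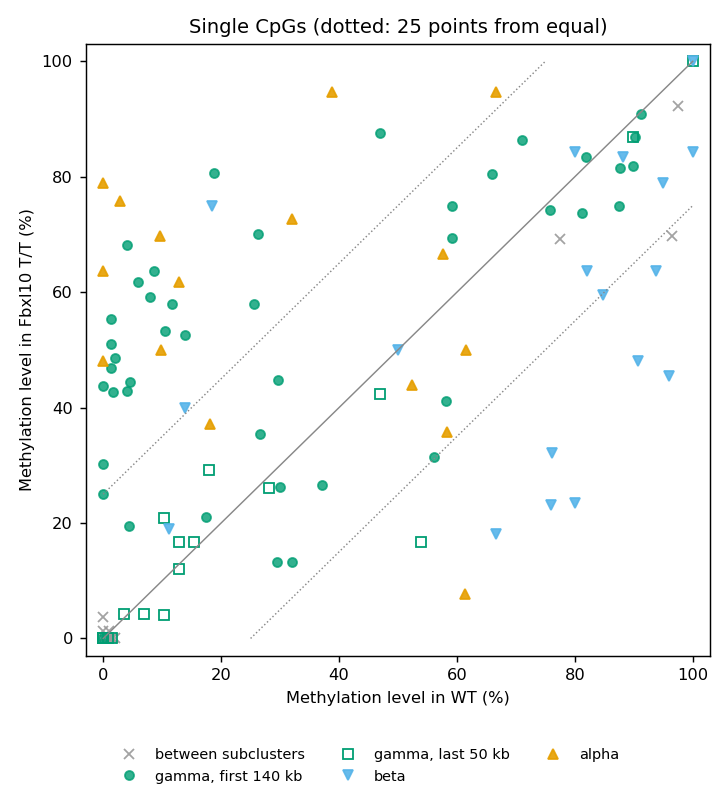
Methylation level of single CpGs in WT (%, horizontal axis) against Fbxl10 T/T (%, vertical axis), each with at least 10 reads in both libraries, with a solid line at equal levels and dotted lines 25 points from it. Alpha CpGs and gamma CpGs of the first 140 kb that are low in WT lie above the upper dotted line with few exceptions, those of the last 50 kb of gamma and between the subclusters stay near the origin, and beta CpGs high in WT lie on or below the solid line apart from 1.

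CpGs inside CCGG were read by the same libraries and were not used above. Their level was 55.7% in WT and 65.5% in Fbxl10 T/T in alpha (9.77 points, 5.80 to 13.7), 46.4 and 57.2% in gamma (10.9 points, 8.52 to 13.2) and 75.1 and 57.3% in beta (-17.8 points, -21.96 to -13.6). The directions were those of the CpGs outside CCGG, and the WT level in each subcluster was higher inside CCGG than outside. This also held in windows near 0 in WT outside CCGG. In WT, chr18:37803001-37804000 read 24.7% inside and 0.748% outside, and chr18:37890001-37891000 read 22.4% inside and 1.32% outside. The cause was not tested, so the 2 classes are not compared in level. Of 131 such CpGs with 10 reads in both libraries, 26 were called higher, against 10.1% in the genome, and 12 lower, against 9.78%. Gamma gave 16 higher and 0 lower of 73, alpha 7 and 2 of 30, and beta 3 and 10 of 28.

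By window, the CCGG CpGs in chr18:37303001-37304000 read 18.1% in WT and 66.3% in Fbxl10 T/T, and those of the adjoining window read 77.6 and 62.4%. In chr18:37892001-37893000 they read 19.7 and 82.7%, and in chr18:37890001-37891000 22.4 and 62.6%. The last stretch of gamma again showed little difference in chr18:37966001-37967000, with 23.1 and 21.5% over 10 CpGs. It was not uniform, since chr18:38002001-38003000, near its end, read 29.7% in WT and 79.2% in Fbxl10 T/T over 2 CpGs (118 and 48 reads). Nearby, chr18:37995001-37996000 read 72.5 and 90.2% over 2 CpGs (109 and 61 reads). Both windows lie beyond the last gamma CpG tested outside CCGG. Among 10 beta windows with 30 reads at CCGG CpGs in both libraries, 8 were lower in Fbxl10 T/T, with a median difference of -31.3 points and a range from -43.3 to 21.3 points.

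In none of the 3 Polycomb mutants did a subcluster stand above WT with an interval that leaves out 0, at CpGs outside CCGG and at the depth they had. Each was compared with the same WT library, so the 3 comparisons are not independent of each other or of that of Fbxl10 T/T. Over CpGs shared with WT in all 3 subclusters, the difference from WT was -8.25 points in Ring1B -/- (-12.3 to -3.30; 65 CpGs, 277 reads), -0.73 in Eed -/- (-6.44 to 5.95; 56 CpGs, 192 reads) and -7.59 in Ezh2 -/- (-12.1 to -2.14; 49 CpGs, 245 reads). In alpha the levels were 12.9% in Ring1B -/- against 23.7% in WT, 6.25% in Eed -/- against 17.96%, and 10.5% in Ezh2 -/- against 20.6%. The 3 alpha intervals all include 0. With CpGs inside CCGG kept, the overall difference was -2.32 points in Ring1B -/-, and as a mean over CpGs it was -13.5 points in Eed -/-, whose value took either sign across settings. In gamma they were 15.8% against 23.5% in Ring1B -/- (-7.71 points, -12.3 to -1.97), 26.8% against 24.9% in Eed -/- (1.93 points, -4.64 to 9.60) and 13.3% against 20.9% in Ezh2 -/- (-7.60 points, -12.1 to -1.65). In beta, 27 reads of Ezh2 -/- gave 55.6% against 87.6% in WT (-32.0 points, -50.6 to -14.4), while Ring1B -/- and Eed -/- had 6 and 7 reads. The CCGG CpGs of beta gave 50% in Ezh2 -/- against 83.6% (50 reads) and 58.1% in Eed -/- against 85.0% (31 reads).

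Cytosines not followed by G, a measure of incomplete conversion together with non-CpG methylation, read C in 0.704% of reads over the locus in WT and 0.519% in Fbxl10 T/T. The share was 2.76% in Ring1B -/-, 3.80% in Eed -/- and 2.27% in Ezh2 -/-. It was higher in the Polycomb libraries, and its part in their levels was not tested.

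No window of the subclusters had 5 CpGs and 30 reads in any Polycomb mutant. Of single CpGs, 13 could be tested in Ring1B -/-, 6 in Ezh2 -/- and 0 in Eed -/-. None was called higher in Ring1B -/- or Ezh2 -/-, where 0.685% and 0.185% of the genome's tested CpGs were. In Ring1B -/- 2 of 13 were called lower, against 1.77% of the genome, and in Ezh2 -/- 0 of 6, against 1.75%. By unadjusted p under 0.05 (Fisher's exact test) the numbers were 3 of 13 and 1 of 6, and the genome's share at that cut was not computed. The 3 are the 2 called lower and position 37907945, which is also the 1 in Ezh2 -/-. The 2 called lower are neighbours in gamma that share reads, at 37845872 and 37845883. They had 99 of 113 and 101 of 112 reads in WT, 62 of 76 and 66 of 76 in Fbxl10 T/T, and 4 of 13 and 5 of 13 in Ring1B -/-. Eed -/- had 6 of 9 and 9 of 9 there, and Ezh2 -/- 6 of 6 and 5 of 6, so Ring1B -/- was the low library at both.

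The 30 CpGs called higher in Fbxl10 T/T were also read, as a description, in the other libraries. WT read 7.67% there (143 of 1864 reads) and Fbxl10 T/T 57.3% (684 of 1194), which is how they were chosen. Ring1B -/- read 5.11% (7 of 137 reads; 2.50 to 10.2%), Eed -/- 10.8% (7 of 65; 5.32 to 20.6%) and Ezh2 -/- 1.64% (2 of 122; 0.451 to 5.78%). Since the set was chosen for low WT and high Fbxl10 T/T values, no difference between libraries is drawn from it. For the 9 alpha CpGs Ring1B -/- had 0 of 50 reads, which allows a level of up to 6%, Eed -/- 1 of 19 and Ezh2 -/- 1 of 29. For the 16 CpGs of the first 140 kb of gamma that were below 10% in WT, Ezh2 -/- had 0 of 83 reads, which allows up to 3.61%. Eed -/- read 12.5% there (6 of 48) and Ring1B -/- 7.69% (6 of 78).

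**Figure D5:**
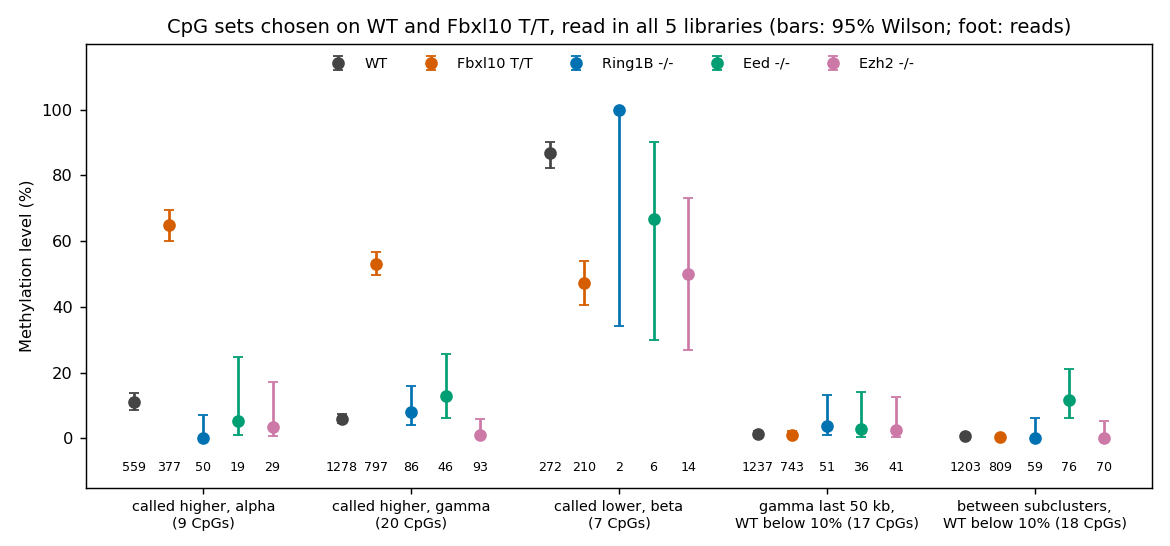
Methylation level (%, vertical axis) of 5 sets of CpGs in each of the 5 libraries, with 95% Wilson intervals and the number of reads at the foot. WT and Fbxl10 T/T values are those that chose the sets, and the beta set rests on 2 to 14 reads in the Polycomb mutants.

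Between the subclusters, position 37735793 was lower than in WT in each of the 4 mutants. It had 135 of 140 reads in WT, 62 of 89 in Fbxl10 T/T, 4 of 13 in Ring1B -/-, 5 of 14 in Eed -/- and 5 of 10 in Ezh2 -/-. Adjusted p-values by Fisher's exact test were 2.03e-07, 3.83e-06, 1.46e-05 and 0.00833 in that order, with 0.949% of CpGs called lower over the genome in Eed -/-. The window chr18:37803001-37804000 could be tested in all 4 mutants: Ring1B -/- had 0 of 59 reads, Ezh2 -/- 0 of 70 and Eed -/- 9 of 76. The Eed -/- level of 11.8% stood above WT by fewer than 20 points (adjusted p = 3.52e-05, Fisher's exact test) and was not called. Its 9 methylated counts came from neighbouring CpGs that can share reads: 3 of 16 at 37803875, 3 of 17 at 37803888 and 3 of 17 at 37803891. The same 3 reads may thus be counted at each, which makes that p-value too small. Tested singly, these CpGs had adjusted p-values from 0.0946 to 0.278 (Fisher's exact test).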

How the data were processed

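RRBS of mouse ES cells was read from 5 deposited tables, 1 per genotype. The authors aligned the reads with BSMAP 2.74 to mm9, per the submitters' processing notes. Trimming, treatment of duplicates and depth filters are not given in the sources used here. Per the file headers, the tables as deposited give raw read counts at each cytosine, both of reads showing C and of reads showing C or T. They also hold expected counts, in which the authors scaled the reads showing C or T for variants seen on the opposite strand; these served as an alternative only.

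From the raw counts, CpGs outside CCGG with at least 1 read in both libraries of a comparison were summed by subcluster and by 1-kb window (at least 5 CpGs and 30 reads in each library). Fisher's exact test (two-sided) was run on the summed reads over chromosomes 1 to 19 and X, with Benjamini-Hochberg adjustment over all windows. Windows were called at 20 points and an adjusted p of 0.05. Single CpGs (at least 10 reads in both libraries, 25 points) were added after the data were seen, as were the WT classes (edges 10 and 70%) and the division of gamma. The rule for naming windows took up to 5 that rose most and 5 that differed least or fell most among those tested in each subcluster in Fbxl10 T/T, and any called in a Polycomb mutant. It names all 9 windows tested. Windows with 3 or 4 CpGs, CCGG windows and CpGs were named after their values were seen. The members, lists and rules were chosen with earlier results of these data known. The window test was tested on simulated data in which CpGs shared no reads and libraries differed by counting error only. Its error rate on real libraries was therefore not tested. The software was python 3.11.15, scipy 1.17.1 and numba 0.67.0. Promoters of 2 comparison lists (12 non-clustered protocadherins and 17 factors known to act on the clusters) were found by matching RefSeq promoter sequences (GRCm38.p6) to the cytosine contexts of the tables, with at least 15 cytosines matched. Promoters of the clustered genes and their neighbours were not analysed here. No sequence of this locus is printed, and no coordinates were converted between builds. Alternatives covered read minimums, the CpGs counted, window rules and size thresholds.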

Additional observations from a re-analysis of the deposited data

How the results depend on the processing

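No called difference changed its sign under the alternatives run. Differences that were not called did so in 4 cases. The overall value of Eed -/- ran from -13.5 to 4.39 points, its gamma value from -8.92 to 6.75, the beta value of Ring1B -/- (6 reads) from -12.9 to 4.21, and the window chr18:37845001-37846000 read 31.7 points as a mean over CpGs, where 4 CpGs with 1 read in each library weigh fully. The overall difference of Fbxl10 T/T from WT was 9.93 points as a mean over CpGs, 9.83 with CpGs inside CCGG kept and 23.6 over CpGs covered in all 5 libraries. In alpha it was 14.3 points as a mean over CpGs, where thinly covered CpGs weigh as much as deep ones, 18.6 with CCGG kept, 39.1 at a minimum of 10 reads and 48.8 over CpGs in all 5 libraries. In gamma it was 17.8 over the last of these. Windows called higher in Fbxl10 T/T numbered 0 of 4 at a minimum of 5 or of 10 reads per CpG, 0 of 1 over CpGs in all 5 libraries and 0 of 3 with at least 10 CpGs, settings under which the 3 called windows no longer had enough CpGs. They numbered 8 of 21 with CCGG kept and 6 of 19 with at least 3 CpGs. Windows called lower numbered 0 in those same 4 stricter settings, 2 of 21 with CCGG kept and 2 of 9 at 10 points, where the second was chr18:37445001-37446000. Single CpGs called higher numbered 56 of 237 with CCGG kept, and those called lower 20 of 237 with CCGG kept and 5 of 75 at a minimum of 20 reads. Except for windows of at least 3 CpGs, the genome's share called under these settings was not computed. These counts therefore show only how the calls depend on the setting.

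In Ring1B -/- the overall difference was -2.32 points with CCGG kept (-1.03 in gamma). In Eed -/- the lowest values above, -13.5 and -8.92 points, came from the mean over CpGs. With CCGG kept, 1 of 5 windows was called lower in Ring1B -/- and 1 of 5 in Eed -/-, and the genome's share under that setting was not computed. The cause of these shifts was not tested. Of the comparison-level results, 49 values kept their side of the threshold or stayed near the main value and 22 moved. Of the others 244 did so, 8 moved and 1 passed the threshold only under the alternative. Among these others, single CpGs were rerun with the scaled counts only, and a changed size threshold leaves the level of a window as it is. Many of the 244 could therefore hardly have moved. A kept call can hide a shift in size: as a mean over CpGs, chr18:37425001-37426000 read -32.8 points against -54.9, chr18:37897001-37898000 40.5 against 15.2 and chr18:37304001-37305000 -21.7 against -5.88. Raw and scaled counts gave the same calls. No paired analysis was possible because there is 1 library per genotype. The alternatives planned for promoters of named protocadherin genes were not run. Depth limits every statement on the Polycomb mutants, and the level of a CpG with 10 reads moves in steps of 10 points.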

Other observations

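Among the protocadherins outside the clusters, 3 of 12 had a promoter that could be matched and was covered. Pcdh18, a delta-type protocadherin, read 3.17% in WT (221 reads) and 69.7% in Fbxl10 T/T (152 reads) over 11 CpGs of its promoter window. At few reads, Ezh2 -/- read 44.4% there (9 reads; 18.9 to 73.3%) and Eed -/- 0 of 4, while Ring1B -/- had none. Pcdh9 read 0 of 125 reads in WT, which allows up to 2.4%, and 9.47% in Fbxl10 T/T (95 reads), with 20% in Ezh2 -/- (10 reads; 5.67 to 50.98%), 0 of 8 in Ring1B -/- and 0 of 4 in Eed -/-. Pcdh19, the X-linked gene of an epilepsy with mosaic expression, read 0.855 and 1.44% (234 and 209 reads). These promoters were not tested, and they were given for their values only.

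Of 17 genes known to act on the clusters, 11 had a covered promoter. Their levels ran from 0 to 6.36% in Fbxl10 T/T, and none was higher than in WT by 20 points. The share over all promoters of the genome was not computed, so that count is not read as a result about these genes. Ctcf, whose product binds the variable promoters, read 5.30% in WT and 6.36% in Fbxl10 T/T (1434 and 802 reads). Wapl, which releases cohesin from DNA, read 0 of 260 reads in WT, which allows up to 1.15%, and 0 of 215 in Fbxl10 T/T, which allows up to 1.4%. Smchd1, a repressor of the clusters, read 0.133 and 0.483% (752 and 414 reads). The DNA methyltransferase genes Dnmt1, Dnmt3a and Dnmt3b each read below 1% in both libraries.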
